A study of Mus musculus with 27 samples.

Results

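Gene expression in the mouse cortex on the side of a stroke, 24 h after blood flow returned, was compared with that in the cortex of sham-operated mice across all genes of a count table. The 3 ipsilateral libraries at 24 h and the 3 sham libraries were chosen by their column names, which makes 6 of the 27 libraries of the study. All mice were wild-type C57BL6, 7 to 8 weeks old, and all were anesthetized with isoflurane. In the ipsilateral group a nylon suture closed the right middle cerebral artery for 35 min, with the common carotid artery tied, and was then withdrawn. Only animals whose cortical blood flow fell deeply and then recovered were kept. In the sham group the arteries were exposed for the same period and no suture was inserted. The other libraries came from ipsilateral cortex at 3, 6 and 12 h and from contralateral cortex at 3, 6, 12 and 24 h, with 3 libraries in each of the 9 groups. The hemisphere of the sham cortex, the time between sham surgery and dissection, the part of the cortex taken and the number of animals in a library are not given in the labels. Whether ipsilateral and contralateral cortex came from the same animals is not given either.

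Closure of the middle cerebral artery starves part of the cortex of oxygen and glucose, and the return of blood adds oxidative stress and opens the way for an inflammatory response. Injured and neighbouring cells switch on stress proteins such as chaperones. Microglia, the resident macrophages of the brain, and astrocytes, its star-shaped support cells, change state and release cytokines, proteases and matrix proteins, and leukocytes can enter through activated vessels. Neurons are the cells most sensitive to ischemia and carry most of the synaptic and ion channel transcripts of the cortex.

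The 3 sham libraries held 43616527, 42291845 and 34226854 counts, and the 3 ipsilateral libraries 38779242, 33256273 and 44693308. RNA had been depleted of cytosolic ribosomal RNA, and mitochondrial ribosomal RNA remained as 25.3% to 27.5% of the counts in sham libraries. Ipsilateral replicate 1 stood apart, with 40.4% against 28.0% and 27.7% in replicates 2 and 3, so counts of the inflammatory, leukocyte, matrix, reactive astrocyte, phagocyte and endothelial lists are also given without it. The first principal component held 53.52% of the variance and separated sham from ipsilateral libraries. The second held 16.46% and spread the ipsilateral libraries from 38.7 (replicate 1) to -44.45 (replicate 3), with the sham libraries between 0.97 and 8.14. Replicates came from different days of surgery. Neuron markers were abundant in all 6 libraries, with a summed level of 5609 to 6249 CPM (counts scaled to the size and composition of each library) in sham and 4198 to 4891 CPM in ipsilateral cortex. None of 12 markers of striatal neurons and none of 12 of the choroid plexus, which lie near the dissected tissue, passed the test. The striatal markers nevertheless had a median log2 fold change of -0.55, with 1 of 12 positive. Their summed level was 309 to 483 CPM in sham and 201 to 383 CPM in ipsilateral cortex. The choroid plexus markers had a median of -0.05. Whether the tissue taken was alike in both groups was not tested.

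At 24 h the ipsilateral cortex had risen in genes of inflammation, matrix breakdown, reactive astrocytes and the heat shock response, and had fallen, by smaller amounts, in genes of synapses and ion channels. Of 18087 genes tested, 4008 (22.2%) had an adjusted p under 0.05 by edgeR's quasi-likelihood test with Benjamini-Hochberg adjustment. Among them 2043 rose (11.3% of the genes tested) and 1965 fell (10.9%). Rises were the larger changes: 985 genes rose at least 2-fold (5.45%) and 84 fell at least 2-fold (0.464%). The median change was 0.97 on the log2 scale among the rises and -0.51 among the falls, and 0.03 over all tested genes. All 3 ipsilateral libraries lay above all 3 sham libraries for 3482 genes (19.3%) and below them for 3777 (20.9%). The total was 3125 without ipsilateral replicate 1 and 2464 without sham replicate 1. The rises numbered 1236 without sham replicate 1 and 1333 without sham replicate 2, and the falls 1228 without sham replicate 1. With the day of surgery as a block and only these 6 libraries fitted, 1315 genes rose.

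**Figure D1:**
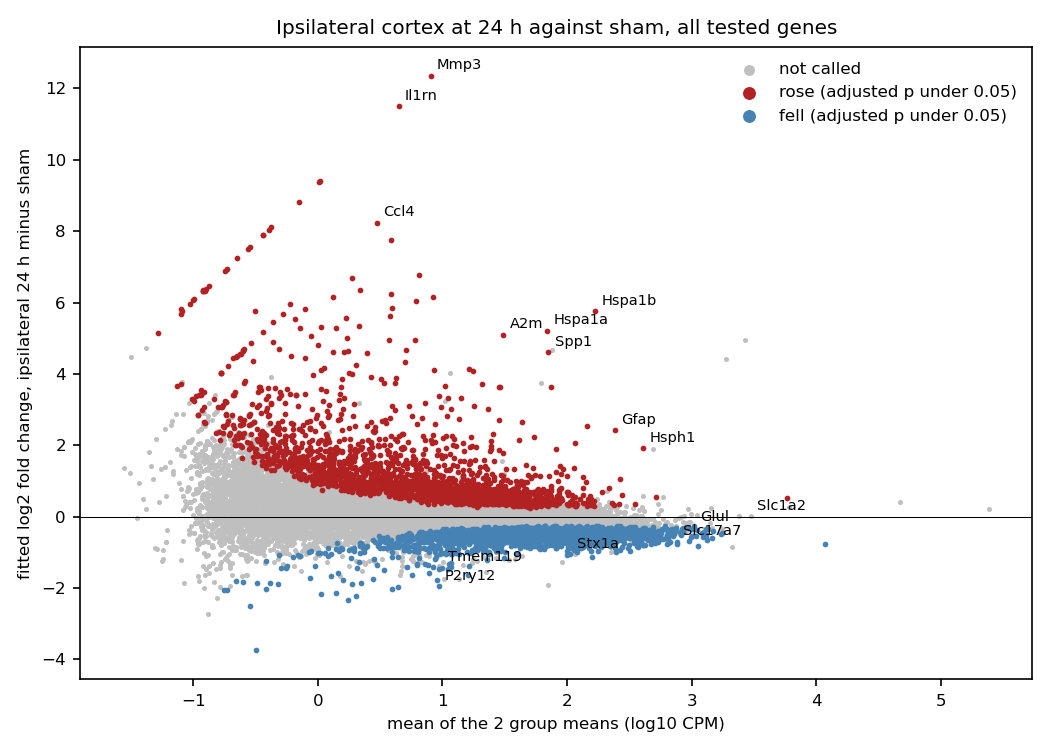
Log2 fold change of ipsilateral cortex at 24 h over sham (vertical axis) against the mean of both group means in log10 CPM (horizontal axis) for the 18087 tested genes, with genes that passed the test in colour. The 985 rises of at least 2-fold reach far higher than the 84 falls of at least 2-fold reach down.

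The largest rises were those of secreted proteases, cytokines, phagocyte surface proteins and the inducible heat shock proteins of 70 kDa. This ranking took only genes with every ipsilateral library above every sham library, so their separation is no separate result. Mmp3, stromelysin, which cuts matrix proteins and other proteases (chr9:7445822-7455975), had no count in any sham library and reached 37.4, 10.6 and 0.320 CPM in the ipsilateral libraries. With a floor of 3 counts for the whole sham group, the ipsilateral level was at least 582-fold higher. Il1rn, the antagonist of the interleukin 1 receptor (chr2:24336860-24351491), had no sham count and 17.6, 8.93 and 0.240 CPM, which is at least 322-fold higher. Both genes were high in replicates 1 and 2 and low in replicate 3. Such floors and count intervals cover counting error only.

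Ccl4, a chemokine that draws monocytes and T cells, had 0.0463, 0 and 0 CPM in sham and 7.99, 8.32 and 1.40 CPM in ipsilateral cortex, a ratio of counts of 327 (95% interval 90.3 to 2709.8). Mmp12, macrophage elastase (chr9:7344397-7360461), had 0.0926, 0 and 0 CPM and 18.5, 3.63 and 1.08 CPM, a log2 fold change of 7.75 ± 1.25 (SE, n = 3 and 3 libraries; adjusted p = 0.000257). Ccl2, the main monocyte chemoattractant (chr11:82035577-82037452), went from 0.185, 0.0910 and 0.0583 CPM to 23.4, 12.4 and 2.62 CPM (log2 fold change 6.77 ± 1.16, adjusted p = 0.000493). In each of these genes the lowest ipsilateral library was replicate 3, which the ranking required to lie above every sham library. Msr1, a scavenger receptor of macrophages, had 0.324, 0.228 and 0.117 CPM in sham and 29.5, 15.2 and 5.13 CPM in ipsilateral cortex (log2 fold change 6.16 ± 0.66, adjusted p = 3.34e-06). Lgals3, galectin 3, a lectin of activated phagocytes, had 0.185, 0.182 and 0 CPM and 14.0, 5.64 and 3.50 CPM (log2 fold change 5.86 ± 0.69). Gpr84, a receptor for medium-chain fatty acids on activated microglia and macrophages, had 0.0926, 0.182 and 0.175 CPM and 8.27, 8.88 and 5.33 CPM (log2 fold change 5.62 ± 0.49, adjusted p = 6.99e-08). Replicate 3 was nearer to the other ipsilateral libraries for Gpr84 than for Msr1.

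Ptx3, a secreted pattern recognition protein, rose by 6.23 on the log2 scale, Tgm1, a transglutaminase, by 6.05, and A2m, a protease inhibitor, by 5.10. The paired immunoglobulin-like receptors Lilrb4 and Gp49a rose by 4.96 and 4.95, and these are close copies between which reads may have been split. Mmp3 (adjusted p = 0.25), Il1rn (0.231), Mmp12 (0.0588), Ptx3 (0.0603) and Tgm1 (0.0756) missed the threshold when only the 6 libraries were fitted, so their calls rest on the spread shared with the other groups. Without ipsilateral replicate 1 all of these largest rises still passed.

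The largest falls among annotated genes were in P2ry12, Selplg and Tmem119 of resting microglia, Itm2a of endothelial cells, and Myoc and Myl9. The ranking of falls likewise took only genes with every ipsilateral library below every sham library. P2ry12, the purine receptor by which microglia sense injury (chr3:59216271-59262985), had 15.1, 10.3 and 19.0 CPM in sham and 3.96, 3.71 and 3.81 CPM in ipsilateral cortex, a log2 fold change of -1.95 ± 0.30 (adjusted p = 0.000101). The 3 ipsilateral values were nearly equal and lay well below the lowest sham library. Itm2a, a membrane protein of endothelial cells (chrX:107397195-107403360), had 25.6, 21.5 and 25.2 CPM and 9.23, 8.60 and 5.61 CPM (log2 fold change -1.63 ± 0.27, adjusted p = 0.000226). Myoc, the secreted protein myocilin, had 19.4, 11.7 and 10.4 CPM and 5.05, 6.39 and 3.56 CPM (log2 fold change -1.47 ± 0.29), and Ppp1r3g, a glycogen-targeting subunit of protein phosphatase 1, fell 3.01-fold. Scarna3a, a small Cajal body RNA, was high in sham replicate 1 alone, with 14.1, 3.34 and 3.50 CPM against 1.65, 2.12 and 1.56 CPM, and it did not pass without sham replicate 1 or ipsilateral replicate 3. In bulk tissue, fewer cells of a type and less RNA per cell cannot be told apart.

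**Figure D2:**
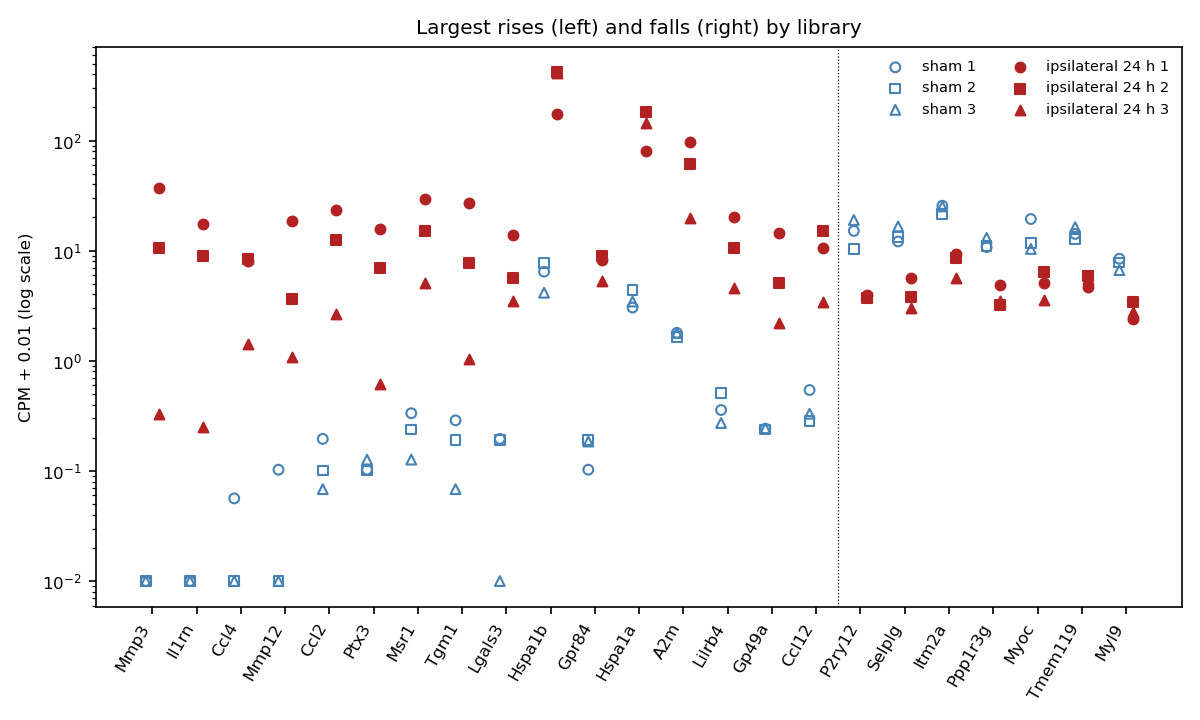
CPM with an offset of 0.01 on a log scale (vertical axis) in each sham and ipsilateral library for the genes with the largest rises (left) and falls (right). Ipsilateral replicate 3 is the lowest of the 3 ipsilateral libraries for most of the largest rises, as for Mmp3 with 37.4, 10.6 and 0.320 CPM, while the ipsilateral values of the falls lie closer together.

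Chemokines are the secreted proteins that attract leukocytes, and nearly all of the CC family rose. Of 13 CC chemokines and receptors tested, 11 rose and none fell, against 11.3% of all genes, and their median log2 fold change was 4.14 against 0.03 over all tested genes. Ccl12, another monocyte attractant, had 0.533, 0.273 and 0.321 CPM in sham and 10.6, 15.2 and 3.40 CPM in ipsilateral cortex (log2 fold change 4.68 ± 0.57, adjusted p = 8.33e-06). Leaving out ipsilateral replicate 1 left 9 raised. Among CXC and CX3C chemokines and receptors 6 of 12 rose (5 without ipsilateral replicate 1) and 1 fell. Cxcl10, an interferon-inducible attractant of T cells, had 0, 0 and 0.117 CPM and 4.39, 2.01 and 1.46 CPM (log2 fold change 6.15 ± 0.95), and Cxcl1, which attracts neutrophils, rose by 5.35. The member that fell was Cx3cl1, fractalkine, a neuronal ligand for microglia, from 457, 459.9 and 522 CPM to 267, 280.5 and 256 CPM (log2 fold change -0.84 ± 0.12, adjusted p = 1.9e-05).

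Genes listed as markers of monocytes, macrophages and neutrophils rose in part beside these genes. In bulk tissue, cells that entered and resident cells that express such genes cannot be told apart. The summed level of 16 monocyte and macrophage markers was 39.0 to 50.5 CPM in sham and 80.4 to 273 CPM in ipsilateral cortex. 9 of them rose, among them Chil3, a chitinase-like protein, with 0, 0 and 0.0583 CPM in sham and 2.58, 0.251 and 0.240 CPM in ipsilateral cortex, a ratio of counts of 57.1 (95% interval 15.5 to 478). Fcgr4, an activating antibody receptor, rose by 4.16 on the log2 scale, and Vim, vimentin, which astrocytes also express, by 2.24. For neutrophils, 4 of 10 tested markers rose and the summed level was 4.96 to 5.51 CPM in sham and 6.89 to 22.2 CPM in ipsilateral cortex. S100a9, a calcium-binding protein abundant in neutrophils, had 0.324, 0.0455 and 0.233 CPM and 6.62, 1.79 and 0.401 CPM, and it missed the threshold with only the 6 libraries fitted (adjusted p = 0.0972). The granule gene Ltf had 0 counts over the sham group and 14 over the ipsilateral group, and Ngp had 4 and 10, so both were too low to test. The sums of both lists and every risen member of them were highest in ipsilateral replicate 1, and 6 monocyte and 3 neutrophil markers rose without that library. The part of these cells in the results was not tested.

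No lymphocyte marker passed the test in the upward direction. The T cell genes Cd3d, Cd3e and Cd3g had 4, 0 and 2 counts over the 3 ipsilateral libraries, and the B cell gene Ms4a1 had 0 counts in both groups. Cd8a, also a T cell gene, had 7 counts over the sham group and 34 over the ipsilateral group, and Cd8b1 had 2 and 6. All of these were too low to test. Ighm, the heavy chain of immunoglobulin M, was the only one of 5 tested members that passed, and it fell from 15.5, 10.4 and 10.6 CPM to 2.77, 4.77 and 6.21 CPM (log2 fold change -1.40 ± 0.30, adjusted p = 0.00207). The tested members that did not pass had log2 fold changes of 1.58 (Il2rb), 1.04 (Cd79a), -0.29 (Trbc2) and -0.30 (Cd4). Red cell and platelet genes, a sign of blood in the tissue, were summed at 88.0 to 107 CPM in sham and 54.4 to 102 CPM in ipsilateral cortex. Hbb-bt, a hemoglobin chain, fell 1.87-fold and did not pass without sham replicate 1 or ipsilateral replicate 3.

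Cytokines of the interleukin 6 family and their signalling genes rose. Of 14 tested, 9 rose (8 without ipsilateral replicate 1) and none fell. Osmr, the receptor of oncostatin M (chr15:6813568-6874968), had 6.97, 7.78 and 7.96 CPM in sham and 54.0, 60.3 and 32.8 CPM in ipsilateral cortex (log2 fold change 2.69 ± 0.33, adjusted p = 1.71e-05). Stat3, the transcription factor below these receptors, had 48.4, 46.1 and 49.5 CPM and 137, 118 and 89.1 CPM (1.26 ± 0.14), and Socs3, its feedback inhibitor, 2.78, 2.41 and 2.45 CPM and 32.0, 21.0 and 9.55 CPM (3.03 ± 0.48). For all of these genes every ipsilateral library lay above every sham library. Il11, another ligand of the family, passed with a log2 fold change of 5.00 ± 1.14 although its groups overlapped. It had 0.139, 0 and 0.175 CPM in sham and 7.20, 2.76 and 0.0200 CPM in ipsilateral cortex, with replicate 3 below sham replicates 1 and 3. Clcf1, also a ligand, rose by 2.48 and did not pass without ipsilateral replicate 1.

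Interleukin 1 and tumour necrosis factor genes and the NF-kappaB genes that they induce behaved likewise, with 16 of 20 raised and none lowered. Tnf had 0.0463, 0.0910 and 0 CPM in sham and 1.76, 1.90 and 1.52 CPM in ipsilateral cortex, a log2 fold change of 5.06 ± 0.69 (adjusted p = 1.45e-05). Its 3 ipsilateral values were close to one another, unlike those of Ccl2 and Ccl4. Its receptor Tnfrsf1a (chr6:125349723-125362483) had 3.73, 4.39 and 4.14 CPM and 26.0, 19.3 and 14.2 CPM (2.27 ± 0.23, adjusted p = 2.17e-07), and Tnfrsf12a, the receptor for the cytokine TWEAK, rose by 2.61. The NF-kappaB subunits Nfkb2 and Relb rose by 1.89 and 1.04. The count was 12 without ipsilateral replicate 1. Of 16 prostaglandin and leukotriene genes 4 rose (3 without that library), led by Ptgs2, the inducible cyclooxygenase, with 23.2, 19.1 and 21.5 CPM and 45.1, 53.5 and 62.7 CPM (1.34 ± 0.21).

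Interferon-stimulated genes, the antiviral genes that cells switch on through type I interferon receptors, rose at 24 h. Of 23 tested, 16 rose and 1 fell, with a median log2 fold change of 1.07. The median of the same genes against the same sham libraries was 0.01, 0.04 and 0.08 in ipsilateral cortex at 3, 6 and 12 h. Mx1, an antiviral GTPase, had 0.116, 0.137 and 0.175 CPM in sham and 1.37, 1.48 and 0.861 CPM in ipsilateral cortex (log2 fold change 3.10 ± 0.50, adjusted p = 8.48e-05). Rsad2, viperin, had 0.741, 0.728 and 0.991 CPM and 3.65, 2.51 and 3.91 CPM (2.04 ± 0.37). Irf9, a subunit of the interferon-activated transcription factor ISGF3, rose by 1.30, and Ddx58, the RNA sensor RIG-I, by 0.97. The gene that fell was Cmpk2, a mitochondrial nucleotide kinase, 1.39-fold, and it did not pass without sham replicate 1. Without sham replicate 2, 10 of the group rose, and without ipsilateral replicate 1, 12. Interferon-induced GTPases and antigen presentation genes rose in 12 of 20 cases (9 without ipsilateral replicate 1): Gbp2 by 2.30, Gbp3 by 1.99, Nlrc5, an activator of class I genes, by 2.41, and Tap1, a peptide transporter, by 1.45.

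The promoters of 2 of these genes are printed because they carry the letters of the interferon response element (a pair of GAAA units with any 2 bases between them, searched on both strands; copies may overlap), shown in capitals. The windows run 5′ to 3′ in the direction of transcription, from 250 bases before to 50 bases after the start in RefSeq (build GRCm38.p6): Isg15, a ubiquitin-like protein, at chr4:156200769-156201068 on the minus strand, and Gbp3 at chr3:142559794-142560093 on the plus strand.
Isg15: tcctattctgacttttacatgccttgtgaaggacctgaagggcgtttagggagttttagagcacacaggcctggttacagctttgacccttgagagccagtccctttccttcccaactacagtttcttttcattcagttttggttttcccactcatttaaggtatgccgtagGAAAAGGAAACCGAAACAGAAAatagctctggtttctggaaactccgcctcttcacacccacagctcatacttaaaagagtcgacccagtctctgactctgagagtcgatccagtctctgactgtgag
Gbp3: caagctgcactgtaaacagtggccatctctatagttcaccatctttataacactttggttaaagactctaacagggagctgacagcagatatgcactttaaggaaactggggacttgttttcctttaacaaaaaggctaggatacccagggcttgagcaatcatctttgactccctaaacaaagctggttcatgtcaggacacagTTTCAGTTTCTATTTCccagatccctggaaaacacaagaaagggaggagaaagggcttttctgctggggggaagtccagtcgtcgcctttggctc
The copies in Isg15 start between 78 and 66 bases before the transcription start, and those in Gbp3 45 and 39 bases before it. Isg15 had 0.463, 0.637 and 0.729 CPM in sham and 1.98, 1.06 and 0.841 CPM in ipsilateral cortex (log2 fold change 1.08 ± 0.39, adjusted p = 0.0448), and Gbp3 had 0.834, 1.57 and 1.22 CPM and 5.66, 3.91 and 4.89 CPM (1.99 ± 0.30, adjusted p = 4.83e-05). The motif was found in 9 of 17 interferon-stimulated genes that have a window (52.9%) and in 8 of 14 of the GTPase and antigen presentation genes (57.1%), against 3.44% of all 32851 windows. Among genes that rose at least 4-fold the share was 7.98%. A match describes these letters and is not a test of binding.

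Complement genes rose in 7 of 15 cases, with none lower. The receptors led: C3ar1, the receptor of the C3a fragment (chr6:122847140-122856157), had 2.22, 1.59 and 2.16 CPM in sham and 33.9, 15.9 and 10.1 CPM in ipsilateral cortex (log2 fold change 3.32 ± 0.35, adjusted p = 1.46e-06), and C5ar1 rose by 3.75. C3, the central component, had 0.232, 0.0455 and 0.117 CPM and 8.35, 1.28 and 0.421 CPM (4.63 ± 0.90), with most of the rise in replicate 1, and it missed the threshold with only the 6 libraries fitted (adjusted p = 0.0998). C1qb, part of the recognition complex, rose by 0.68 and did not pass without ipsilateral replicate 1. The number of complement genes that rose was 4 without ipsilateral replicate 1, 4 with only the 6 libraries fitted, and 12 without ipsilateral replicate 3.

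Matrix metalloproteinases, enzymes that cut the basal lamina and other matrix, rose together with their inhibitor Timp1. Of 15 tested metalloproteinases and inhibitors 11 rose and none fell, with a median log2 fold change of 2.04. Besides Mmp3 and Mmp12, Adamts1, a protease of proteoglycans, had 12.8, 9.65 and 13.6 CPM in sham and 115, 76.6 and 34.3 CPM in ipsilateral cortex (2.65 ± 0.44, adjusted p = 0.000363). Timp1 had 0.834, 0.341 and 0.408 CPM and 14.3, 6.48 and 3.00 CPM (3.89 ± 0.62, adjusted p = 0.0002). Every risen member was highest in ipsilateral replicate 1, and 9 rose without it. With only the 6 libraries fitted 7 rose.

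The promoters of Mmp3 (chr9:7445572-7445871) and Mmp12 (chr9:7347124-7347423), both on the plus strand of the same build, are shown because each holds an AP-1 site close before its start. The site (TGANTCA, both strands) is in capitals.
Mmp3: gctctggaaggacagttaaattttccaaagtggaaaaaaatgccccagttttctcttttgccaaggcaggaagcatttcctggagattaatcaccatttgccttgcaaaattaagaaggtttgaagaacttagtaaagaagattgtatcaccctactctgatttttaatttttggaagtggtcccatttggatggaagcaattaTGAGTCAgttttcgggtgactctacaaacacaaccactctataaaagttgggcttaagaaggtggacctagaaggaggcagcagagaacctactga
Mmp12: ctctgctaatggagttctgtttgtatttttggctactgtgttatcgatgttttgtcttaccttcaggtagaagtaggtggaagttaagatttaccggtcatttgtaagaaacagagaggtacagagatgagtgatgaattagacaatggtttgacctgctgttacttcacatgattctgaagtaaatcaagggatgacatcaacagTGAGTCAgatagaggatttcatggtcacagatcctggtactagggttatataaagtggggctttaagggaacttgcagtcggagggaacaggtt
It starts 46 bases before the start of transcription in Mmp3 and 44 bases before it in this window of Mmp12, 1 of 2 windows listed for that gene. The site was in 3 of 11 genes of the metalloproteinase and inhibitor list that have a window (27.3%). It was in 48 of 263 genes with a window that rose at least 4-fold (18.3%) and in 5.61% of those that fell. Of tested genes with a window 6.72% held it, and of all single windows 7.81%. No AP-1 binding was measured.

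The plasminogen activators, which start fibrin and matrix breakdown, and their receptors rose in 7 of 13 genes. Plaur, the urokinase receptor, had 1.07, 0.592 and 1.14 CPM in sham and 10.3, 7.95 and 3.75 CPM in ipsilateral cortex (log2 fold change 2.98 ± 0.54, adjusted p = 0.000543). Procr, the endothelial protein C receptor, rose by 4.03. Without ipsilateral replicate 1, 5 of the group rose, and with only the 6 libraries fitted 3. Matrix and matricellular genes rose in 12 of 24 cases, and in 8 without ipsilateral replicate 1, in which every risen member was highest. Itga5, a fibronectin receptor subunit, had 3.89, 3.50 and 3.41 CPM and 25.5, 13.4 and 10.8 CPM (2.20 ± 0.31). Spp1, osteopontin, spread most, with 6.76, 5.01 and 4.93 CPM in sham and 290.0, 105 and 12.9 CPM in ipsilateral cortex (4.61 ± 0.80, adjusted p = 0.000551). Tgfbi, a secreted adhesion protein, had 2.25, 1.77 and 2.22 CPM and 34.3, 12.4 and 5.93 CPM (3.07 ± 0.56). Spp1 and Tgfbi missed the threshold with only the 6 libraries fitted, with adjusted p up to 0.206 and 0.0542.

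Reactive astrocyte genes rose almost without exception. Of 26 tested, 25 rose and none fell, 23 of them at least 2-fold, and 22 rose without ipsilateral replicate 1. The median log2 fold change of the list was 2.36. Gfap, the intermediate filament that defines reactive astrocytes (chr11:102887336-102897200), had 63.5, 81.6 and 83.5 CPM in sham and 587, 418 and 218 CPM in ipsilateral cortex, a log2 fold change of 2.42 ± 0.28 (adjusted p = 1.24e-05). All ipsilateral values were above all sham values, with replicate 1 the highest and replicate 3 the lowest. Serpina3n, a serine protease inhibitor, had 8.96, 13.4 and 11.0 CPM and 230.1, 146 and 38.0 CPM (3.64 ± 0.42), and it missed the threshold with the surgery day as a block and only the 6 libraries fitted (adjusted p = 0.0917). Slc10a6, a steroid sulfate transporter, rose by 4.24. Lcn2, lipocalin 2, rose by 2.25 (adjusted p = 0.0295) and lost its call when any 1 of 5 libraries was left out, ipsilateral replicate 1 among them.

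Homeostatic astrocyte genes passed the test about as often as all genes, of which 22.2% did. 1 of 20 rose and 4 fell. The riser was Sox9, the transcription factor of astrocyte identity, from 6.51, 5.85 and 6.53 CPM to 19.0, 13.7 and 8.81 CPM (1.13 ± 0.20, adjusted p = 0.000295). The genes that fell were Slc7a10, a serine transporter, 1.72-fold, Ntsr2, a neurotensin receptor, 1.49-fold, Gpr37l1 1.31-fold and Ppp1r3c 1.28-fold. With the surgery day as a block and only the 6 libraries fitted, 0 fell. The number that fell was 1 without ipsilateral replicate 3 and 2 without ipsilateral replicate 2, sham replicate 2 or sham replicate 3.

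Most resting microglia genes did not pass the test. Of 16 homeostatic microglia genes 4 fell, against 10.9% of all genes, and none rose: P2ry12, given above, Selplg, Tmem119 and Siglech. Selplg, the P-selectin ligand (chr5:113817798-113832528), had 12.1, 13.4 and 16.6 CPM in sham and 5.63, 3.80 and 3.00 CPM in ipsilateral cortex (-1.76 ± 0.23, adjusted p = 1.26e-05). Tmem119, a marker of resident microglia, had 14.2, 12.7 and 16.3 CPM and 4.67, 5.92 and 5.49 CPM (-1.42 ± 0.24), and Siglech, a sialic acid lectin, 8.06, 8.78 and 10.3 CPM and 4.15, 2.21 and 4.27 CPM (-1.35 ± 0.22). The groups did not overlap for any of these genes, which the ranking of largest falls had required of P2ry12, Selplg and Tmem119. Fcrls, another resident marker, did not pass (0.85 ± 0.32, adjusted p = 0.058). The median log2 change of the list from the same sham libraries was -0.31 in ipsilateral and -0.27 in contralateral cortex at 24 h. On the contralateral side 0 members passed. In the test of ipsilateral against contralateral cortex 4 members were lower and 1 higher.

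Among phagocyte activation and lipid handling genes 16 of 24 rose and 2 fell. Cd68, a lysosomal protein of phagocytes (chr11:69664213-69666170), had 4.79, 3.91 and 3.99 CPM in sham and 19.0, 14.0 and 9.13 CPM in ipsilateral cortex (1.72 ± 0.21, adjusted p = 4.95e-06). Plin2, which coats lipid droplets, had 3.75, 3.94 and 2.92 CPM and 40.6, 18.4 and 11.6 CPM (2.73 ± 0.35), and Gpnmb, a glycoprotein of lipid-laden macrophages, rose by 1.54. Those that fell were Apoe, the lipid carrier made mostly by astrocytes, 1.51-fold, and Fabp5, a fatty acid-binding protein, 1.40-fold. The number that fell was 0 without ipsilateral replicate 3 or sham replicate 2, and 1 without ipsilateral replicate 2, sham replicate 1 or sham replicate 3. Every risen member was highest in ipsilateral replicate 1, where monocyte markers were also highest, and 13 rose without that library. Microglia and blood-derived macrophages share many of these genes, and their parts were not tested.

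Among vessel genes the endothelial activation genes rose in part. Of 15 such genes 6 rose (5 without ipsilateral replicate 1) and none fell. Icam1, an adhesion molecule for leukocytes (chr9:21015940-21028814), had 1.83, 1.07 and 2.36 CPM in sham and 14.6, 14.2 and 7.09 CPM in ipsilateral cortex (2.78 ± 0.41, adjusted p = 5.56e-05). Sele, E-selectin, had 0.0463, 0.0910 and 0.0583 CPM and 3.63, 5.19 and 1.04 CPM (5.57 ± 1.13), and Selp, P-selectin, had 3 counts over the sham group and 144 over the ipsilateral group, a ratio of 47.7 (95% interval 16 to 234). Blood-brain barrier and endothelial genes had 4 rises and 2 falls among 19, against 11.3% and 10.9% of all genes, and 3 rose without ipsilateral replicate 1. Slc16a1, a lactate transporter, rose by 0.98, Cdh5, the junction protein VE-cadherin, by 1.57 and Pecam1 by 1.19. Cdh5 and Pecam1 missed the threshold with only the 6 libraries fitted, with adjusted p up to 0.13 and 0.117. Slc2a1, the glucose transporter of the barrier, fell 1.47-fold and did not pass without ipsilateral replicate 3 or sham replicate 3. Of 12 pericyte and smooth muscle genes Vtn, vitronectin, passed, falling 1.61-fold. Myl9, the smooth muscle myosin light chain named among the largest falls, changed by -1.42 ± 0.26 on the log2 scale (adjusted p = 0.000294).

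**Figure D3:**
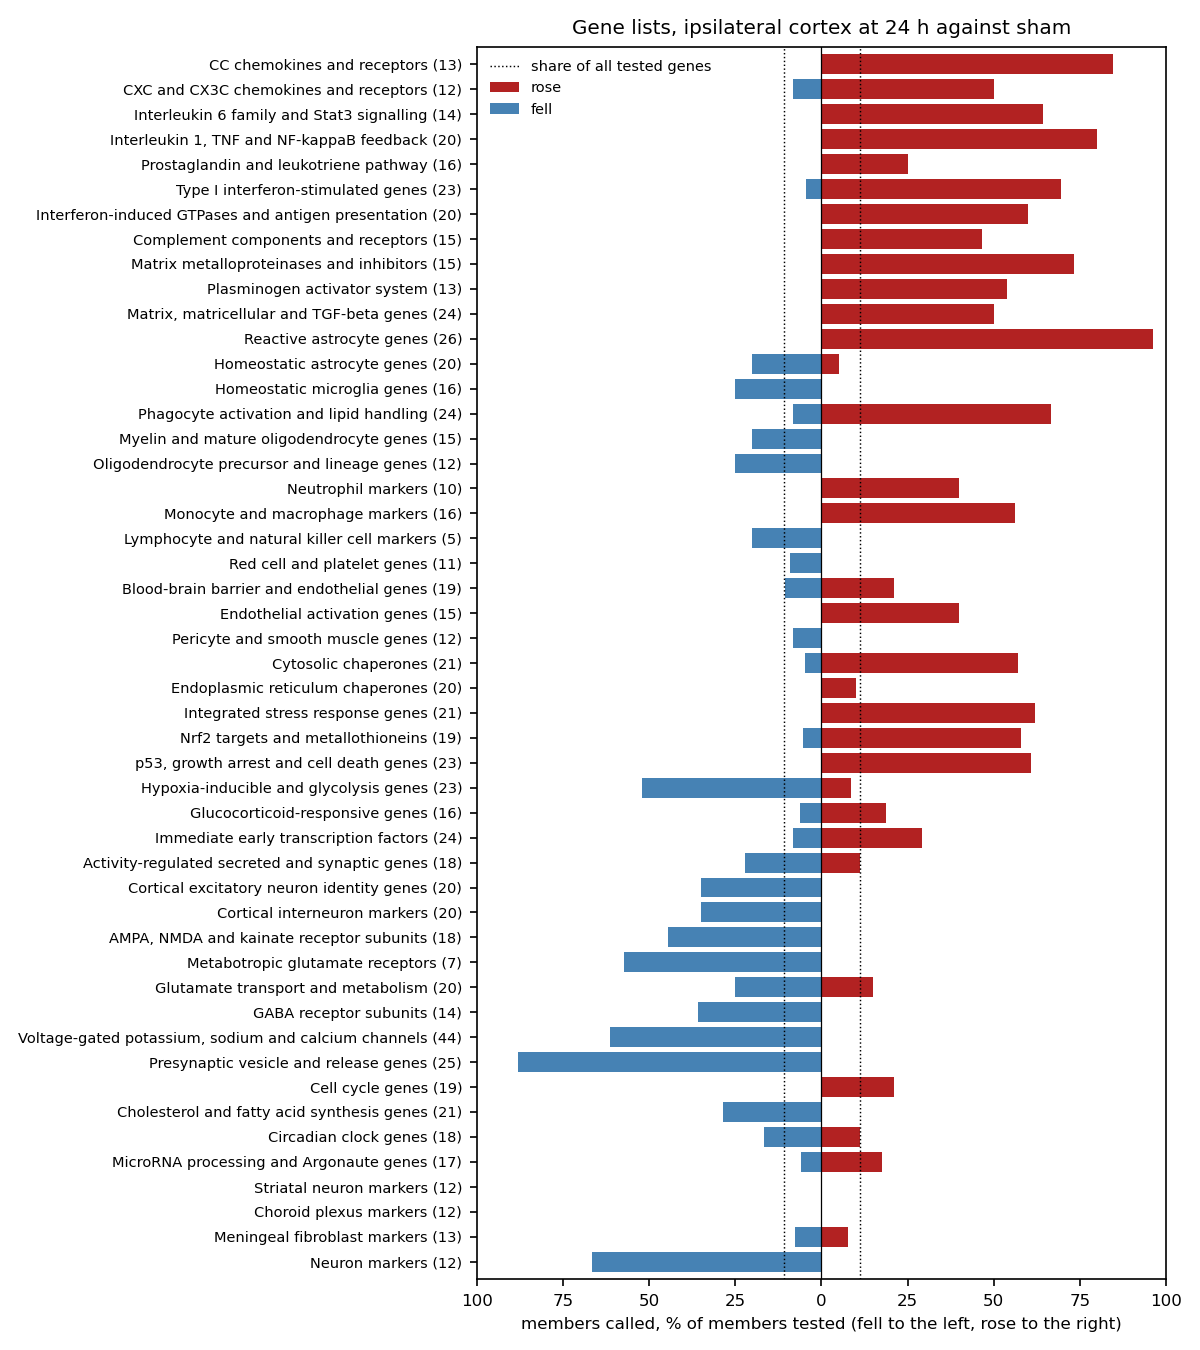
Percent of tested members called in each gene list, with falls to the left and rises to the right (horizontal axis). Reactive astrocyte genes have 25 of 26 members raised and presynaptic genes 22 of 25 lowered, against 11.3% of all genes raised and 10.9% lowered.

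The heat shock response, in which misfolded proteins release the transcription factor HSF1 to induce chaperones, was raised in all 3 ipsilateral libraries. Of 21 cytosolic and mitochondrial chaperones 12 rose and 1 fell. Hspa1a, inducible Hsp70 (chr17:34969359-34972156), had 3.03, 4.41 and 3.44 CPM in sham and 80.8, 179.6 and 143 CPM in ipsilateral cortex, a log2 fold change of 5.21 ± 0.38 (adjusted p = 7.39e-08). Its neighbour Hspa1b (chr17:34956429-34959238) had 6.44, 7.67 and 4.14 CPM and 172, 415 and 407 CPM (5.76 ± 0.44, adjusted p = 2.13e-07). The genes are near-identical copies, so how reads divide between them is uncertain. Both were lowest in ipsilateral replicate 1. Hspb1, the small heat shock protein Hsp27, had 1.34, 2.14 and 1.40 CPM and 14.0, 23.6 and 13.9 CPM (3.39 ± 0.30), and Hsph1, a nucleotide exchange factor of Hsp70, 185, 168 and 159.7 CPM and 423, 807 and 697 CPM (1.91 ± 0.21). The mitochondrial pair Hspd1 and Hspe1 rose by 1.37 and 1.34. Without ipsilateral replicate 1, 13 chaperones rose and 0 fell, and without sham replicate 1, 0 fell.

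The promoters of Hspa1a (chr17:34972107-34972406, minus strand), Hspa1b (chr17:34959189-34959488, minus strand) and Hspe1 (chr1:55087898-55088197, plus strand) are printed because they carry heat shock elements, runs of inverted GAA units that HSF1 binds. Capitals mark the head-to-head pair GAANNTTC and the tail-to-tail pair TTCNNGAA, which can overlap; each reads the same on both strands.
Hspa1a: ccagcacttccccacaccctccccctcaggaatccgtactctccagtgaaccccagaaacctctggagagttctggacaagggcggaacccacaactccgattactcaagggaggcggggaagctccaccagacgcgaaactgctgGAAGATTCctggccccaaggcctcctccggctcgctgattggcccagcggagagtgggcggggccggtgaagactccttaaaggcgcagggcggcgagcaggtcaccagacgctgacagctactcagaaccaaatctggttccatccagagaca
Hspa1b: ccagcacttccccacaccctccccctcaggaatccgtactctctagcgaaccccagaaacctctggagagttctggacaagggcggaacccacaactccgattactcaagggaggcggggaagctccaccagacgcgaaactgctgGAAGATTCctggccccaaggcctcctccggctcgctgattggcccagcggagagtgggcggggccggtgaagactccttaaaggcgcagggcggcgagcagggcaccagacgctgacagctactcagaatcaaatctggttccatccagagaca
Hspe1: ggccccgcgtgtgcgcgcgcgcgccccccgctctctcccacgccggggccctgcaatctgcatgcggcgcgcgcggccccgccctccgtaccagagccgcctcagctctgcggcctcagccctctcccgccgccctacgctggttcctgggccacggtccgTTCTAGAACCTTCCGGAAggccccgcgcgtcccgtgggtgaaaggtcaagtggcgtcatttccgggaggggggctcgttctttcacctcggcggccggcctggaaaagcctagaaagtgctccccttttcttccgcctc
The pair in Hspa1a and Hspa1b starts 104 bases before the start of transcription in both copies, and the 3 overlapping pairs in Hspe1 start between 89 and 79 bases before it. Hspe1 had 18.7, 19.8 and 16.2 CPM in sham and 29.3, 62.4 and 47.6 CPM in ipsilateral cortex. The head-to-head pair was in 10 of 16 chaperone genes with a window (62.5%), against 7.86% of all windows and 7.31% of tested genes. The tail-to-tail pair was in 5 of 16 (31.2%), against 8.52% of all windows. The head-to-head pair followed by another GAA unit after any 2 bases was in 4 of 16 (25%), against 0.603% of all windows. Among genes that rose at least 4-fold the head-to-head pair was in 8.37%, near the share of tested genes. The tail-to-tail pair was in 14.1% of them, against 8.44% of tested genes. The pair with another GAA unit was in 0.76%, against 0.628% of tested genes. These windows were matched by letters alone.

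Chaperones of the endoplasmic reticulum rose about as often as all genes (11.3%). Of 20 tested, 2 rose: Edem1, which marks misfolded glycoproteins for removal, by 0.75 on the log2 scale, and Hspa5, the chaperone BiP, by 0.62. Edem1 passed in every alternative run. Hspa5 missed the threshold without ipsilateral replicate 3, without any 1 of the sham libraries, with only the 6 libraries fitted, and with the surgery day as a block (adjusted p = 0.0532, by edgeR).

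Genes of the integrated stress response, induced by the transcription factor ATF4 when protein synthesis is curbed, rose in 13 of 21 cases, with none lower. Chac1, an enzyme that breaks down glutathione (chr2:119351242-119354326), had 4.49, 3.55 and 2.92 CPM in sham and 10.6, 23.6 and 18.8 CPM in ipsilateral cortex (2.27 ± 0.28, adjusted p = 1.04e-05). Trib3, a pseudokinase that damps the response, had 0.394, 0.182 and 0.175 CPM and 1.46, 3.77 and 3.04 CPM (3.43 ± 0.44, adjusted p = 8.15e-06). Both were lowest in ipsilateral replicate 1, and both groups were separate. Atf3, a stress-induced transcription factor that is also an immediate early gene (chr1:191170296-191183333), had 1.23, 0.865 and 0.700 CPM and 23.7, 11.1 and 14.0 CPM (4.11 ± 0.50). Sesn2, which restrains the growth kinase mTORC1, rose by 1.98 and Cebpb, a partner factor, by 1.32. Leaving out ipsilateral replicate 1 again gave 13. The promoter of Chac1 (chr2:119350992-119351291, plus strand) is shown because it holds the ATF4 response element TGATGNAA, searched on both strands and found here on the opposite one, in capitals.
Chac1: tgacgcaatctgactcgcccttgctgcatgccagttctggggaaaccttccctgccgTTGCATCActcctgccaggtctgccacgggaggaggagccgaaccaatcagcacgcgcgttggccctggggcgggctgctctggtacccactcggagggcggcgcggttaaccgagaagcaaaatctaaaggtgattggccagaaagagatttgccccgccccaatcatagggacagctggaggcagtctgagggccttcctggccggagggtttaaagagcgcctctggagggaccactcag
The element starts 193 bases before the start of transcription. It was in 7 of 19 promoters of this list (36.8%), against 3.97% of all windows and 2.98% of tested genes. Among genes that rose at least 4-fold it was in 7.6%.

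Oxidative stress genes under the factor Nrf2, with the metallothioneins, rose in 11 of 19 cases and fell in 1. Hmox1, heme oxygenase, which breaks down heme (chr8:75093618-75100593), had 3.52, 2.41 and 2.92 CPM in sham and 53.7, 37.7 and 24.9 CPM in ipsilateral cortex (3.71 ± 0.32, adjusted p = 2.13e-07). Txnrd1, thioredoxin reductase, had 39.3, 37.4 and 38.0 CPM and 79.0, 91.8 and 79.9 CPM (1.13 ± 0.12), with little spread in either group. Srxn1 rose by 0.69 and Mt1, a metallothionein, by 1.00. The fall was in Gsta4, a glutathione transferase, 1.64-fold. The antioxidant response element TGACNNNGC was in 6 of 15 promoters of the list (40%), against 12.4% of all windows and 16.5% of tested genes. Among genes that rose at least 4-fold it was in 15.2%, no more than among tested genes.

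Genes of growth arrest and cell death rose in 14 of 23 cases, and none fell. Gadd45b, a stress sensor, had 8.59, 5.62 and 5.34 CPM in sham and 28.7, 18.2 and 22.7 CPM in ipsilateral cortex (1.83 ± 0.26, adjusted p = 3.52e-05). Cdkn1a, the p53-induced cell cycle inhibitor p21, rose by 1.48, Pmaip1, a pro-apoptotic protein, by 1.50, and Mcl1, an anti-apoptotic one, by 0.66. Bcl2a1b, an anti-apoptotic gene of myeloid cells, had 3 counts over the sham group and 98 over the ipsilateral group, a ratio of 32.5 (95% interval 10.8 to 160.1). A pair of genes of necroptosis in the list was chosen after their values were seen: Mlkl, which breaches the cell membrane, had 0, 0.0228 and 0.233 CPM and 1.59, 0.726 and 0.401 CPM (3.48 ± 0.99, adjusted p = 0.0124), and its activating kinase Ripk3 0.0463, 0.0910 and 0.117 CPM and 1.70, 0.809 and 0.280 CPM (3.42 ± 0.66). The groups did not overlap for either gene. Monocyte markers, whose sums are given above, rose in the same libraries, and their part was not tested.

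Hypoxia-inducible and glycolysis genes were mostly lower at this time. Of 23 tested, 12 fell and 2 rose. Ldha, lactate dehydrogenase A (chr7:46842274-46855627), had 183, 177 and 168 CPM in sham and 121, 126 and 119.7 CPM in ipsilateral cortex (-0.53 ± 0.10, adjusted p = 0.000308). Eno1, a glycolytic enolase, fell 1.46-fold, and Ndrg1, a hypoxia-induced gene also abundant in oligodendrocytes, 1.71-fold. Gapdh fell 1.34-fold and did not pass without sham replicate 1. The genes that rose were Hk2, the inducible hexokinase, from 2.92, 4.28 and 4.55 CPM to 9.12, 8.43 and 6.79 CPM (1.05 ± 0.27, adjusted p = 0.00574), and Adm, adrenomedullin, a vasodilator peptide, by 1.01. The number that fell was 6 without sham replicate 1, and 7 with the surgery day as a block and only the 6 libraries fitted.

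Genes of the presynaptic terminal fell nearly as a whole. Of 25 genes of synaptic vesicles and transmitter release 22 fell and none rose, against 10.9% of all genes, and the median log2 fold change was -0.54. Unc13a, which primes vesicles for release (chr8:71624125-71671774), had 416, 408 and 444 CPM in sham and 201, 207 and 239.9 CPM in ipsilateral cortex (-0.97 ± 0.13, adjusted p = 1.38e-05). Stx1a, the syntaxin of the fusion machinery (chr5:135023482-135051100), had 151, 139.5 and 141 CPM and 55.5, 72.1 and 79.3 CPM (-1.06 ± 0.18, adjusted p = 0.000145). Syp, synaptophysin of the vesicle membrane, had 632, 619 and 657 CPM and 353, 380.5 and 410.1 CPM (-0.74 ± 0.10). Ipsilateral replicate 1 was the lowest library for each of these genes, and no groups overlapped. Rab3a, a vesicle GTPase, fell 1.62-fold and Syn1, synapsin, 1.53-fold. Leaving out ipsilateral replicate 1 gave 18.

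General neuron markers fell in 8 of 12 cases. Tubb3, neuronal tubulin, had 217, 203 and 192 CPM in sham and 101, 111 and 101 CPM in ipsilateral cortex (-0.97 ± 0.16, adjusted p = 0.000129). Stmn2, a growth cone protein, fell 1.78-fold, Nefl, a neurofilament, 1.59-fold, and Thy1 1.54-fold. The share of neurons in each sample was not measured.

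Ion channels of the neuronal membrane fell in 27 of 44 cases and rose in none. Scn2b, a sodium channel subunit, had 298, 335 and 304 CPM in sham and 195, 174 and 139 CPM in ipsilateral cortex (-0.88 ± 0.12, adjusted p = 1.45e-05). Scn8a, a sodium channel of the axon initial segment, fell 1.59-fold, Kcnq3, a subunit of the M current, 1.52-fold, and Cacna1i, a T-type calcium channel, 1.56-fold. The count was 23 without ipsilateral replicate 1 and 17 without sham replicate 3.

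The glutamate receptors that passed fell by small amounts. Of 18 AMPA, NMDA and kainate receptor genes 8 fell and none rose. Grin2b, an NMDA receptor subunit (chr6:135713221-136173615), had 526, 595 and 640.0 CPM in sham and 389, 417 and 369.9 CPM in ipsilateral cortex (-0.58 ± 0.12, adjusted p = 0.00074). Cacng8, an auxiliary subunit of AMPA receptors, fell 1.68-fold and Gria3, an AMPA receptor subunit, 1.50-fold. The count was 4 without sham replicate 1 and 4 without sham replicate 3. Metabotropic receptors fell in 4 of 7 cases, led by Grm4, with 28.2, 26.4 and 29.7 CPM and 16.6, 14.5 and 12.0 CPM (-0.97 ± 0.18, adjusted p = 0.000302). Grm2 lost its call without ipsilateral replicate 1 or sham replicate 3, and the count was 2 without ipsilateral replicate 3. Of 14 GABA receptor genes 5 fell, such as Gabrd, an extrasynaptic subunit, 1.60-fold, and Gabbr1, of the metabotropic receptor, 1.44-fold. With the surgery day as a block 9 fell.

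Glutamate homeostasis, which the title of the study names, rests on uptake by astrocytes, conversion to glutamine and release from neurons. The main astrocyte transporter did not pass the test: Slc1a2 (GLT-1, chr2:102658239-102790784) had 2644, 2855 and 3406 CPM in sham and 3528, 2555 and 2865 CPM in ipsilateral cortex, a log2 fold change of 0.01 ± 0.14 (adjusted p = 0.979). The values overlapped, with ipsilateral replicate 1 the highest of the 6 and replicate 2 the lowest. Slc1a3 (GLAST) had 299.7, 351 and 384 CPM and 435, 299.8 and 285 CPM (-0.02 ± 0.14, adjusted p = 0.936). Glul, glutamine synthetase, had 1050.0, 1219 and 1186 CPM and 1058, 900.1 and 868 CPM (-0.29 ± 0.11, adjusted p = 0.0685). Neither gene passed.

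Other genes of the glutamate cycle passed the test, 3 upward and 5 downward of 20. Of all genes 11.3% rose and 10.9% fell, so the rises were near the share of all genes. Slc7a11, the cystine-glutamate exchanger that releases glutamate and feeds glutathione synthesis (chr3:50364936-50499087), had 54.4, 45.1 and 44.6 CPM in sham and 179, 127 and 76.7 CPM in ipsilateral cortex (1.41 ± 0.28, adjusted p = 0.00128). Slc17a7, the vesicular transporter VGLUT1 of cortical excitatory neurons (chr7:45163921-45176139), had 942, 877 and 985 CPM and 497, 583 and 648 CPM (-0.70 ± 0.11, adjusted p = 9.84e-05). Slc7a11 was above and Slc17a7 below all sham values in every ipsilateral library. Got1, a transaminase, fell 1.45-fold, Slc38a3, a glutamine transporter of astrocytes, 1.47-fold, and Gls2, a glutaminase, 1.42-fold. Slc1a4, a neutral amino acid transporter, rose by 0.44 and did not pass without ipsilateral replicate 2 or sham replicate 1. The number that fell was 8 without ipsilateral replicate 1 and 3 without sham replicate 2, and the number that rose was 1 without ipsilateral replicate 2 and 1 without sham replicate 1.

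Identity genes of cortical neurons fell in part. Of 20 excitatory identity genes 7 fell, among them Bcl11b, a factor of deep-layer projection neurons, from 70.5, 68.9 and 54.9 CPM to 36.5, 35.8 and 33.5 CPM (-0.88 ± 0.17, adjusted p = 0.000646), and Neurod6 1.84-fold. Of 20 interneuron markers 7 fell, among them Lamp5, from 77.0, 64.3 and 79.7 CPM to 48.8, 39.2 and 36.7 CPM (-0.82 ± 0.14, adjusted p = 0.000124), and Cck, cholecystokinin, 1.77-fold. Pvalb, parvalbumin, fell 1.69-fold and did not pass without sham replicate 1. The interneuron count was 4 without ipsilateral replicate 2, and the same without ipsilateral replicate 3, sham replicate 1 or sham replicate 3.

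Immediate early genes, which neurons switch on within minutes of activity, were mixed at 24 h, with 7 higher and 2 lower of 24. Of all genes 11.3% rose and 10.9% fell, so the falls were near the share of all genes. Fos had 47.5, 25.8 and 28.4 CPM in sham and 55.8, 36.8 and 20.1 CPM in ipsilateral cortex and did not pass (0.14 ± 0.53, adjusted p = 0.871). Besides Atf3, Myc rose by 1.49, Maff by 1.57 and Fosl1, a subunit of AP-1, by 3.14. Nr4a2, an orphan nuclear receptor, fell from 29.2, 20.2 and 21.99 CPM to 6.02, 8.99 and 12.4 CPM (-1.37 ± 0.31, adjusted p = 0.00303). Nr4a3, of the same family, fell 1.93-fold. The count that fell was 1 without ipsilateral replicate 1, and the same without ipsilateral replicate 3, sham replicate 1 or sham replicate 3. Secreted and synaptic genes that follow neuronal activity numbered 18, of which 2 rose and 4 fell. The rises were near the share of all genes (11.3%), and 10.9% of all genes fell. Nptx2, a secreted pentraxin that clusters AMPA receptors (chr5:144545887-144557478), rose from 43.4, 44.0 and 45.1 CPM to 128, 221 and 207 CPM (2.07 ± 0.28, adjusted p = 3.29e-05). Pcsk1, a prohormone convertase, fell 1.79-fold, and Nrn1, neuritin, 1.66-fold.

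Oligodendrocyte genes that passed were all lower, against 10.9% of all genes lowered. Of 15 myelin genes 3 fell, among them Mog 1.78-fold and Cnp 1.70-fold. The count was 1 without ipsilateral replicate 3. Of 12 precursor and lineage genes 3 fell, led by Gpr17, a receptor of cells on the way to myelination, from 24.5, 28.1 and 42.1 CPM to 13.8, 17.0 and 10.4 CPM (-1.20 ± 0.21, adjusted p = 0.000231). Cspg5, a neural proteoglycan, fell 1.76-fold. Medians were similar in contralateral cortex at 24 h against the same sham libraries, where 0 genes of either list passed. The median log2 change of myelin genes was -0.35 ipsilateral and -0.33 contralateral, and that of precursor and lineage genes -0.20 and -0.17. In the test against contralateral cortex, 0 myelin genes were lower and 2 higher, and 2 precursor and lineage genes were lower and 1 higher.

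In each of the other gene groups at most 6 members passed, where 22.2% of all genes did, 11.3% higher and 10.9% lower. Of 21 cholesterol and fatty acid synthesis genes 6 fell, such as Fdps, from 54.8, 54.8 and 48.3 CPM to 37.5, 28.8 and 25.2 CPM (-0.79 ± 0.13, adjusted p = 0.000101), and 3 fell without ipsilateral replicate 3. In contralateral cortex at 24 h against the same sham libraries 6 of these genes fell, with 0.111% of all genes changed, and Fdps had a log2 fold change of -0.73. Of 19 cell cycle genes 4 rose, and Mcm3, of the replicative helicase, was the one that kept its call whichever library was left out (1.42 ± 0.26, adjusted p = 0.000303). Of 18 clock genes Dbp, an output gene of the clock, fell 1.72-fold and Arntl, a core activator, rose by 0.58, the latter not without ipsilateral replicate 3. Among 17 microRNA processing and Argonaute genes Ago2, the main Argonaute, had 146, 140.3 and 157 CPM and 120.3, 139 and 170.3 CPM and did not pass (-0.04 ± 0.12, adjusted p = 0.828). Ago4 rose by 0.49 (adjusted p = 0.00748). Of 16 glucocorticoid-responsive genes 3 rose and Tsc22d3 fell 1.70-fold, a call lost without ipsilateral replicate 1, ipsilateral replicate 2 or sham replicate 2. Of 13 genes listed as markers of meningeal fibroblasts Igf2 fell 1.66-fold and Asgr1 rose by 1.85. Igf2 lost its call when any 1 of 5 libraries was left out, and Asgr1 did not pass without sham replicate 3.

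The ipsilateral libraries did not rank alike for all genes. Of 362 genes that rose at least 4-fold, 221 were highest in ipsilateral replicate 1, 68 in replicate 2 and 73 in replicate 3, and 227 were lowest in replicate 3. Over all tested genes the highest library was replicate 1 for 6921, replicate 2 for 4661 and replicate 3 for 6505. Risen CC chemokines and receptors had a median ratio of 8.92 between replicates 1 and 3, and plasminogen system genes 4.85. Monocyte and macrophage markers had 4.07, metalloproteinases and inhibitors 3.35 and reactive astrocyte genes 2.90. Risen interferon-stimulated genes had a ratio of 1.39. The order was the other way round for risen chaperones, with a median ratio of 0.611 and 1 of 12 highest in replicate 1, and for risen integrated stress response genes, with 0.718 and 2 of 13. The median coefficient of variation over the ipsilateral libraries was 53.4% for genes that rose at least 4-fold and 9.62% for genes that fell, and over the sham libraries it was 45.7% and 6.94%. The share of mitochondrial ribosomal RNA was also highest in replicate 1, and its part in these differences was not tested.

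**Figure D4:**
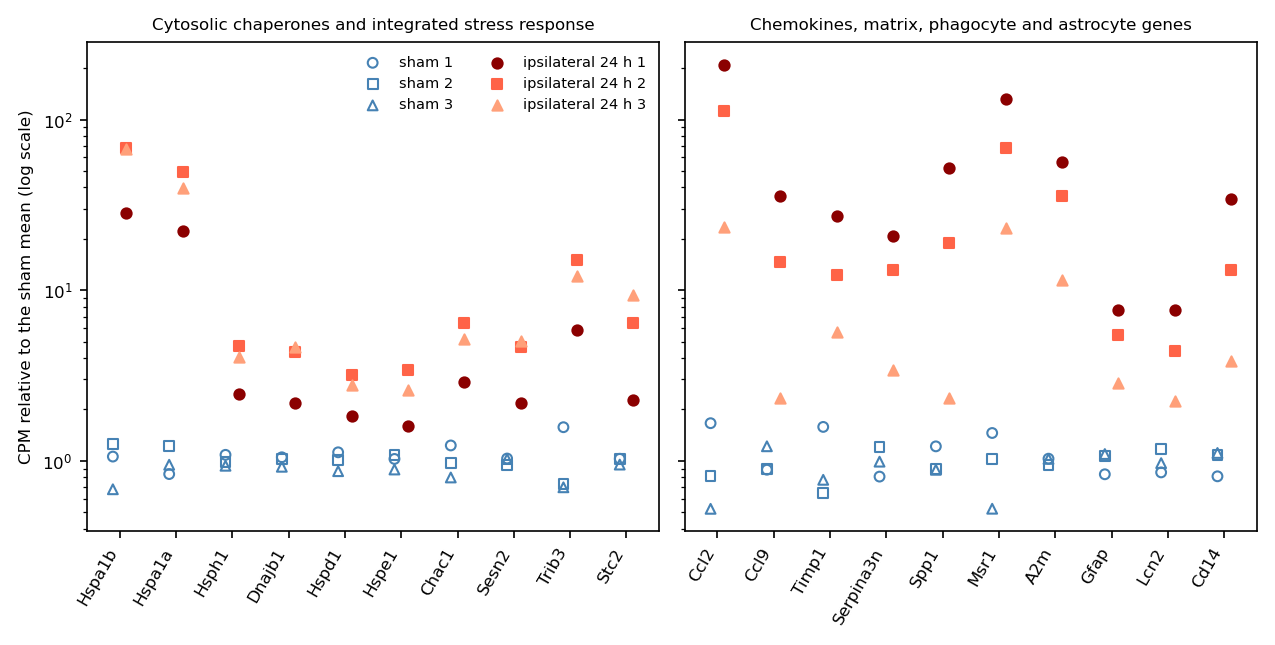
CPM relative to the sham mean on a log scale (vertical axis) in the 3 sham and 3 ipsilateral libraries (points) for chaperone and stress response genes (left) and for chemokine, matrix, phagocyte and astrocyte genes (right), chosen after their values were seen. The genes on the left are lowest in ipsilateral replicate 1, as for Hspa1b with 172, 415 and 407 CPM, and those on the right are highest there, as for Spp1 with 290.0, 105 and 12.9 CPM.

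Whether the changes differed between hemispheres was tested against contralateral cortex at 24 h, since the difference between both hemispheres equals the difference between their changes from the shared sham libraries. Of 18087 genes 3455 differed (19.1%), 1762 higher (9.74%) and 1693 lower (9.36%) on the ipsilateral side, and 2231 differed without contralateral replicate 1. The test treated the libraries as unpaired, although same-numbered libraries may share animals, which the labels do not give. With only both hemispheres at 24 h fitted 2433 genes differed, and 3328 with the surgery day as a block as well. Against sham, 20 genes changed on the contralateral side (0.111%), 5 of them upward (0.0276%) and 15 downward (0.0829%). That count was 83 with only these groups fitted, 199 with the surgery day as a block as well, and between 1 and 19 without a single library.
Gfap had 77.3 to 87.4 CPM in contralateral libraries and was higher on the ipsilateral side by 2.29 ± 0.28 (log2, adjusted p = 2.36e-05). Hspa1a had 2.93 to 4.54 CPM in contralateral libraries and was higher on the ipsilateral side by 5.20 ± 0.38 (adjusted p = 1.81e-07). Neither contralateral range reached the lowest ipsilateral value. Slc17a7 had 869 to 997 CPM in contralateral libraries, and the ipsilateral minus contralateral difference was -0.72 ± 0.11 (adjusted p = 8.57e-05). The synaptic gene Unc13a differed by -0.58 ± 0.13 (adjusted p = 0.00254). Of the 25 presynaptic genes 20 were lower than on the contralateral side, and of the 26 reactive astrocyte genes 24 were higher. P2ry12 had 4.13 to 10.3 CPM in contralateral libraries and a difference of -1.06 ± 0.30 (adjusted p = 0.0151). Mmp3 had no count in the contralateral libraries either and was at least 637-fold higher on the ipsilateral side.

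The change from earlier times was tested as ipsilateral cortex at 24 h against 12 h. Against sham, 44 genes had changed at 3 h (0.243%), 1106 at 6 h (6.11%) and 1864 at 12 h (10.3%), and 4008 at 24 h. Between 12 and 24 h, 63 genes differed (0.348%), 34 higher (0.188%) and 29 lower (0.16%) at 24 h. That count rested on single libraries and on the fit. By edgeR it was 0 without ipsilateral replicate 1 at 24 h (1364 at an unadjusted p under 0.05), 0 without replicate 1 at 12 h (1685) and 0 with only these groups fitted (1969), against 2639 unadjusted with all libraries. It was 25 and 540 without replicates 2 and 3 at 24 h, and 30 and 320 without replicates 2 and 3 at 12 h. By DESeq2 it was 375. Csf2rb, a receptor subunit for myeloid growth factors, had 1.10 to 3.49 CPM at 12 h and 10.1, 5.78 and 4.01 CPM at 24 h, a log2 difference of 1.62 ± 0.37 (adjusted p = 0.0477). Plin2 had 5.69 to 10.7 CPM at 12 h and was higher at 24 h by 1.60 ± 0.33 (adjusted p = 0.0403), and Angptl4, an inhibitor of lipoprotein lipase, by 1.50 ± 0.26. Gpr17 was lower at 24 h than at 12 h, with a log2 difference of -1.10 ± 0.21 (adjusted p = 0.0207). For all of these the call was lost without some single library, as the total shows.

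Median log2 changes of the gene lists from sham, which all share the same sham libraries, are given side by side for the ipsilateral times. Presynaptic genes had a median of -0.11, -0.22, -0.35 and -0.54 at 3, 6, 12 and 24 h. Reactive astrocyte genes had 0.42, 1.17, 1.30 and 2.36. Chaperones had 0.27, 0.59, 0.91 and 0.58. Interferon-stimulated genes had 0.01, 0.04, 0.08 and 1.07. The test of 24 h against 12 h called 1 of them higher, Ifit1, with a log2 difference of 1.68 ± 0.30 (adjusted p = 0.0185). That call was lost without replicate 1 at 24 h, without replicate 1 at 12 h and with only these groups fitted, where 0 genes passed by edgeR.

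**Figure D5:**
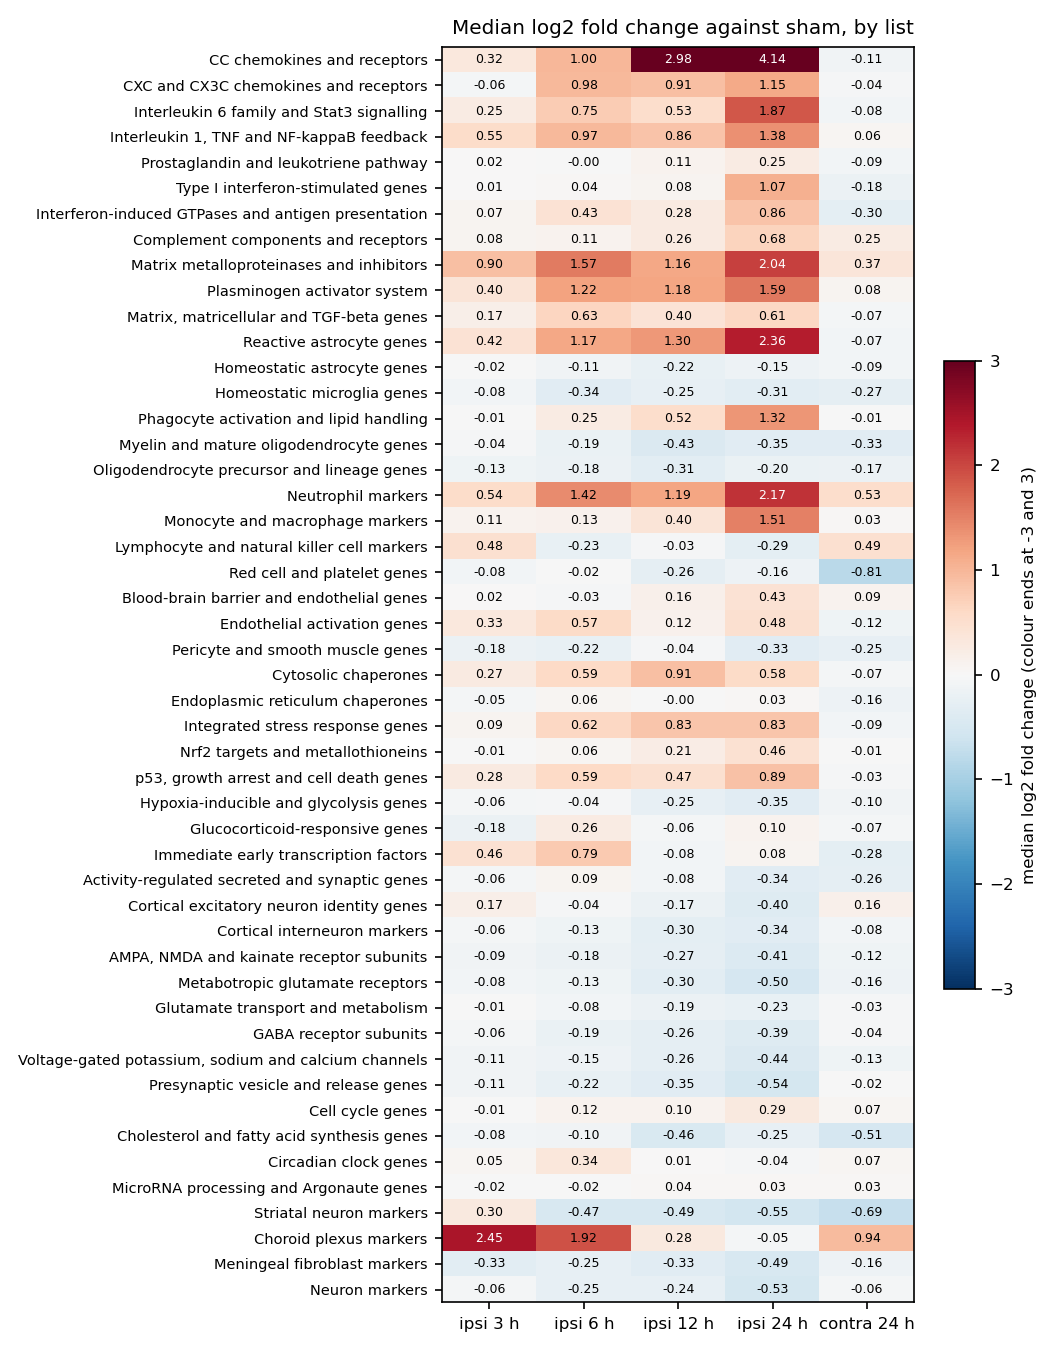
Median log2 fold change from sham (colour and printed value) of each gene list (rows) in ipsilateral cortex at 3, 6, 12 and 24 h and contralateral cortex at 24 h (columns). The interferon-stimulated row goes from 0.08 at 12 h to 1.07 at 24 h, and contralateral medians lie between -0.81 and 0.94.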

How the data were processed

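The data are the total RNA counts per gene that the authors deposited for 27 libraries. The submitters' processing notes name STAR 2.5.0a, featureCounts 1.4.3-p1 and the mm10 build. The labels give neither annotation nor strand setting, so antisense and overlapping genes cannot be told apart. Of 22340 genes, 588 had no count in any library. Filtering with filterByExpr (minimum count 10, minimum total 15) left 18087 and removed 4253, which held 0.0116% of the counts.

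A single edgeR 4.0.16 quasi-likelihood fit (R 4.3.3) took in the 27 libraries, with TMM normalization, robust dispersions and 1 mean per group, and its contrasts were adjusted by Benjamini-Hochberg over all tested genes with a threshold of 0.05. The biological coefficient of variation was estimated at 0.175 and the residual degrees of freedom were 18. CPM use the TMM-scaled library size. Log2 fold changes carry SE derived from the test statistic. Where the sham group had 3 counts or fewer, a ratio of pooled counts with its 95% interval, or a bound against a floor of 3 counts, replaces the fitted value. The scripts were tested on simulated counts.

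Named genes were the 16 largest rises and 12 largest falls with a mean of at least 5 CPM and separate groups, up to 5 members of each of 49 gene lists with the smallest p, 4 in each direction from both tests of a difference, and 8 genes followed throughout; small RNAs with Gm symbols are left out. Adm, Apoe, Cmpk2, Fabp5, Gbp3, Gls2, Hspe1, Ifit1, Isg15, Mlkl, Nr4a3 and Ripk3 were added after their values were seen, where not already named. Some list members are not reported here. The libraries compared and the gene lists were chosen with earlier results of these data known.

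Replicate numbers mark days of surgery, per the labels. With group means removed, same-numbered sham and ipsilateral libraries correlated at -0.07, -0.01 and -0.02 for numbers 1, 2 and 3, and the model without a block was kept. Alternatives were RLE size factors, other filters, abundant RNAs left out, DESeq2 1.42.0, a replicate block, fits of the compared groups alone, and each library left out.

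Coordinates and promoters are from RefSeq (GRCm38.p6, the mm10 build). Of the tested genes 13066 had a promoter window. Symbols were matched for 17355 genes, 857 of them through an older symbol.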

Additional observations from a re-analysis of the deposited data

Results flagged for a closer look

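The change from sham differed between hemispheres at 24 h for 3455 genes, by the test of ipsilateral against contralateral cortex. The largest positive differences under the naming rule were those of Mmp3, at least 637-fold with no contralateral count, Ccl4, with a ratio of counts of 358, Mmp12, with a log2 difference of 7.33, and Il1rn, with 7.14. The largest negative log2 differences were those of Cbln4 (-1.36), a synaptic organizer, Ighm (-1.19), Lamp5 (-1.18) and Selplg (-1.14).

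The change from sham differed between 24 h and 12 h in ipsilateral cortex for 63 genes. The largest positive log2 differences, 24 h minus 12 h, were those of Csf2rb (1.62), Plin2 (1.60), Angptl4 (1.50) and Tlr13 (1.45), a receptor for bacterial RNA. The largest negative ones were those of Gpr17 (-1.10), Mycn (-1.07), Lrrc3 (-0.90) and Insm1 (-0.90). Without ipsilateral replicate 1 at 24 h, 0 genes passed this test in edgeR and 1364 had an unadjusted p under 0.05. By DESeq2 with all libraries 375 passed.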

How the results depend on the processing

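No named gene changed direction with a call on either side. Of 219 named genes called, 157 kept the call in every setting and 62 lost it in at least 1. The 4008 genes that differed from sham became 2464 to 3219 when single libraries were left out (2464 without sham replicate 1), the 2043 rises 1236 to 1665 and the 1965 falls 1228 to 1554. With the replicate block the count was 4379, of which 3971 were shared, and with the block and only the 6 libraries fitted 1315 genes rose. RLE size factors gave 3972, of which 3935 were shared. The 3455 genes that differed from the contralateral side became 2231 to 2995 without single libraries (2231 without contralateral replicate 1). They became 3825 with the replicate block, 2433 with only these groups fitted, and 3328 with both. The 63 genes that differed from 12 h became 0 to 540 without single libraries, 0 with only these groups fitted, 0 with the replicate block and only these groups, and 375 with DESeq2. The 20 genes that changed on the contralateral side became 1 to 19 without single libraries, 83 with only these groups fitted, 199 with the replicate block as well, and 64 with DESeq2. The causes were not tested. Where a library is left out, a group of 2 shares the spread of the other groups. Genes with few sham counts have folds limited by counting error, and the number of animals behind a library is not stated.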
